A study of Mus musculus with 16 samples.

Results

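The levels of 10 genes of the Notch pathway were followed from embryonic stem (ES) cells into embryoid bodies (EBs) on the way to neurons. They are the ligand genes Dll1, Dll3, Dll4, Jag1 and Jag2, the receptor genes Notch1, Notch2 and Notch3, and the Fringe genes Lfng and Mfng. They were taken by gene name from a table of 27807 genes, and each name matched 1 row. All 10 passed the filter on low values, a mean of at least 10 normalised read counts over all libraries. Notch is a membrane receptor that is cut after it meets a Delta or Jagged ligand on a neighbouring cell, so that its intracellular part enters the nucleus, joins Rbpj and switches on genes such as Hes1, Hes5 and Nrarp. Fringe enzymes extend a sugar on Notch and shift its preference between Delta and Jagged ligands. In the embryonic neural tube, cells that turn into neurons carry Delta ligands, and Notch holds their neighbours as progenitors.

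Polyadenylated RNA was sequenced from mouse ES cells and EBs labelled Taf4+/+ (WT) or Taf4-/- (KO), in 8 groups of 2 libraries formed by genotype and stage. ES cells grew on feeder fibroblasts, EB4 are EBs before retinoic acid (RA) was added, and EB5 and EB8 are EBs after a shorter and a longer time in RA. The KO lines are homozygous for a germline Taf4a null allele that lacks 2 exons, and Taf4a encodes a subunit of the general transcription factor TFIID. Lines came from C57Bl6J blastocysts, 2 independent ones for each genotype, but the labels do not say which line a replicate number stands for, and p-values measure only the spread between these libraries. The comparisons ask whether the levels of the 10 genes differed between the genotypes at each stage, and whether they moved differently in the 2 genotypes as the cells differentiated.

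Values are normalised read counts, the reads of a gene divided by a size factor of its library, and the libraries held 22442118 to 40711826 reads in genes. All 4 ES libraries (32631020 reads or more) were deeper than the EB libraries (27685306 or fewer), so depth changed together with the step from ES to EB4, and their effects cannot be told apart. Taf4a counts ran from 1591 to 1959.6 in WT and from 1973 to 2400.0 in KO libraries. They do not resolve the deleted exons, so the labels are not checked by them. The WT ES libraries stood apart from each other, with Nanog (a pluripotency factor) at 6242 in replicate 1 and 22357 in replicate 2, and Nes (a progenitor filament) at 6666 and 1407. The level of chromosome X was 0.47 (log2) in WT ES replicate 2 and -0.25 to -0.16 in the WT EB libraries, and that of chromosome 8 was 0.40 to 0.41 in replicate 1 of the WT EBs and -0.15 in WT ES replicate 1. In WT a difference between lines and the step from ES to EB4 therefore cannot be told apart. EB8 is labelled as neural precursor cells. Of the neural progenitor markers (4 of the 5 listed, with Sox1 not analysed here), Fabp7 was at 354 and 281 in WT EB8 but at 3.17 and 1.07 in KO EB8, which is at the floor of detection (3 reads or fewer), and Pax6 was at 5447 and 5317 against 838 and 361. At that stage these 4 genes summed to 26214 and 23272 in the WT and to 4820 and 4785 in the KO libraries. That of 5 neuronal markers was 17232 and 23216 against 1535 and 1712, and that of 5 pluripotency markers 1225 and 1274 against 18155 and 19788. In bulk samples fewer cells of a type and less RNA per cell cannot be told apart. The 10 genes lie on 7 chromosomes whose overall level stayed within -0.14 to 0.15 on the log2 scale in every library, and none lies on chromosomes 8, 11 or X, whose levels reached 0.41, 0.28 and 0.54. In the EBs, X was raised in KO replicate 2 (0.41 to 0.54), chromosome 11 in KO replicate 1 (0.18 to 0.28) and chromosome 8 in WT replicate 1. These levels thus differed between the genotypes as well, and their effects on genes elsewhere were not tested.

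The stretches of 250 bases before the start of 3 genes are printed because their genes stand for the 3 roles and differed between genotypes at EB8. The windows are those of RefSeq (build GRCm38.p6), each matched exactly to the genome of build NCBI37, whose coordinates are given here. They read 5′ to 3′ on the strand of the gene. Capitals mark CANNTG, the E-box read by basic helix-loop-helix factors, and GGGCGG, the GC box read by Sp1-type factors, on either strand.
Dll1, chr17:15513897-15514146, minus strand: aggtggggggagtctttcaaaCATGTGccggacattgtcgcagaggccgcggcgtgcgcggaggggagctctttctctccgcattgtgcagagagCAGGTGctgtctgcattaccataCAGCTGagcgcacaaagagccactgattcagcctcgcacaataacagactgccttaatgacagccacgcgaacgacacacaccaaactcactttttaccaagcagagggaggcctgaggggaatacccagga
Notch3, chr17:32303836-32304085, minus strand: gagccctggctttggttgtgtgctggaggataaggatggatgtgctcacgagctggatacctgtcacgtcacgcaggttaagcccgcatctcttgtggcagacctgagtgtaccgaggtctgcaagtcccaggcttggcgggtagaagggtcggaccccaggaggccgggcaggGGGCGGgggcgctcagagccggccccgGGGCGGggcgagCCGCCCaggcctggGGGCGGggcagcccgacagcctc
Lfng, chr5:141083045-141083294, plus strand: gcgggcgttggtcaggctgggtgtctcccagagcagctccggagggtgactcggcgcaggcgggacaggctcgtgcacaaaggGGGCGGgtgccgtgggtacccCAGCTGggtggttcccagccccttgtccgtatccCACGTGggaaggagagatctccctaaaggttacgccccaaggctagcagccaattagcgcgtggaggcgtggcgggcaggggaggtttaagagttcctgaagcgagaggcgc
The table holds 2 windows for Dll1. The one not printed, chr17:15512788-15513037, lies within the annotated gene and held 1 E-box and no GC box. The printed Dll1 window ends 60 bases before the annotated gene start and overlaps an exon of the lincRNA A930024N18Rik. It held 3 E-boxes and no GC box, the Notch3 window 4 GC boxes and no E-box, and the Lfng window 2 E-boxes and 1 GC box. TGGGAA, the core of the sequence that Rbpj reads, was found 2 times in the Lfng window, 1 of them overlapping an E-box, and in none of the other members' windows. Members were counted by gene, a match in either Dll1 window being enough, and the comparison set by single window. Of the 9 members with a window in the table, 4 held CANNTG (Dll1, Dll3, Jag1 and Lfng), against 66.2% of all 32851 promoter windows. 7 of 9 held GGGCGG, against 32.7% of all windows, 1 of 9 held TGGGAA (21.6% of all windows), and 0 of 9 held the TATA box TATAAA (12.4%). The starts behind the Notch1, Dll3 and Jag1 windows lie 12841, 453 and 124 bases inside the annotated genes. These windows overlap exons of their own genes, and their matches are included in the counts. A match is a run of letters and not a site at which binding was measured.

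Dll1 (ENSMUSG00000014773, NCBI37 chromosome 17, 15504318 to 15513836), the Delta ligand of neural progenitors and of the presomitic mesoderm, had the widest gap between EB8 libraries of the 2 genotypes after Dll3. In WT its normalised counts were 226 and 172 at ES, 364 and 134 at EB4, 782 and 706 at EB5, and 1762 and 1301 at EB8. In KO they were 193 and 251 at ES, 217 and 190.1 at EB4, 459 and 606 at EB5, and 145 and 130.0 at EB8. Both genotypes stood above their EB4 libraries at EB5, where the KO libraries already lay below both WT libraries by a small margin (a log2 difference of -0.49, limma adjusted p 0.502). At EB8 WT was at its highest and KO at its lowest level. At EB8 Dll1 was 11.0-fold lower in KO (log2 change -3.46, SE 0.38, limma adjusted p 0.000134). From EB4 to EB8 it rose 6.83-fold in WT (log2 2.77, limma adjusted p 0.000258). In KO the same change was -0.57 (95% interval -1.40 to 0.27). The KO change minus the WT change was -3.34 on the log2 scale (SE 0.54, limma adjusted p 0.0105). 867 bases of the Dll1 exons are shared with A930024N18Rik, a lincRNA on the opposite strand, and since the library kit does not mark strand those reads cannot be told apart.

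Dll3 (ENSMUSG00000003436, chromosome 7, 29076673 to 29087257), a Delta family member known to act on Notch within the cell that makes it rather than on its neighbour, had WT counts of 323 and 149.9 at ES, 300.3 and 135 at EB4, 141 and 79.1 at EB5, and 884 and 1027 at EB8. In KO it was at 114 and 101, 124 and 37.0, 80.6 and 38.8, and 69.6 and 22.4 at the same stages. The KO libraries lay below both WT libraries at ES, EB4 and EB8, by a small margin at ES and a wide one at EB8, and overlapped with them at EB5. The EB8 level was 23.5-fold lower in KO (log2 change -4.55, SE 0.68, limma adjusted p 0.000716). In WT it rose 4.71-fold from EB4 to EB8 (log2 2.24, limma adjusted p 0.0284), a call lost when WT EB4 replicate 2 (log2 1.66, limma adjusted p 0.166), WT EB8 replicate 1 (2.34, 0.0837) or WT EB8 replicate 2 (2.13, 0.126) was left out. The genotype difference in that change was -3.00 (SE 0.96, limma adjusted p 0.13).

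Dll4 (ENSMUSG00000027314, chromosome 2, 119151520 to 119161698), the Delta ligand best known from endothelial cells, came up late in both genotypes. Its counts in WT were 8.19 and 5.58 at ES, 20.8 and 11.8 at EB4, 27.3 and 4.39 at EB5, and 219 and 217 at EB8. In KO they were 0 and 2.14 at ES, where both libraries were at the floor, 2.34 and 6.38 at EB4, 2.84 and 10.7 at EB5, and 77.0 and 339 at EB8. The 2 WT EB8 libraries were alike, and the 2 KO libraries lay on either side of them. From EB4 to EB8 Dll4 rose 13.1-fold in WT (log2 3.71, SE 0.95, limma adjusted p 0.0122) and 32.8-fold in KO (log2 5.04, SE 0.95, limma adjusted p 0.0041). The rise in WT missed the threshold without WT EB4 replicate 2 (log2 3.33, limma adjusted p 0.0656), WT EB8 replicate 1 (3.71, 0.0544) or WT EB8 replicate 2 (3.72, 0.061), and with a pseudocount of 0.1 (3.79, 0.0577). At EB8 the genotypes did not differ beyond the spread of the libraries (log2 change -0.43, 95% interval -2.49 to 1.64), and without KO EB8 replicate 1 the change was 0.63. 214 bases of its exons are shared with Gm14207, a lincRNA on the opposite strand.

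Of the 6 endothelial markers, all but Pecam1 were higher in KO EB8 replicate 2 than in replicate 1, as Dll4 was. Cdh5, the cadherin of endothelial junctions, was at 140.3 and 546 in KO EB8 replicates 1 and 2, Kdr (a VEGF receptor) at 195 and 807, and Tie1 at 114 and 487. In WT EB8 they were at 263 and 237, 348 and 358, and 107 and 155. Tek was at 238 and 328 in KO EB8 and at 53.6 and 46.6 in WT EB8, and at ES at 564 and 413 in KO and 735 and 920 in WT. Of the 6 markers Pecam1 and Tek passed the threshold at EB8, both higher in KO, as 10.4% of all genes were. The summed level of all 6 endothelial markers was 2929 and 3580 in KO EB8 and 1097 in both WT EB8 libraries, of which Pecam1, which ES cells also express, made 2236 and 1337 in KO and 197 and 224 in WT. Emcn was at 5.28 and 74.6 in KO EB8 and at 129 and 76.2 in WT EB8, and at the floor in all ES and EB4 libraries. The part of endothelial cells in the Dll4 level was not tested.

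Jag1 (ENSMUSG00000027276, chromosome 2, 136907192 to 136942380), a Jagged ligand, went up in WT and down in KO over the last stages. WT libraries were at 549.7 and 407 at ES, 357 and 330.3 at EB4, 399.9 and 392 at EB5, and 928 and 742 at EB8. KO libraries were at 518 and 491, 391 and 500.2, 286 and 233, and 154 and 281. The KO libraries lay above both WT libraries at EB4 and below both at EB5 and EB8. At EB8 the level was 3.97-fold lower in KO (log2 change -1.99, SE 0.29, limma adjusted p 0.000588). Jag1 rose by 1.27 on the log2 scale from EB4 to EB8 in WT (limma adjusted p 0.00616; 0.0521 without WT EB8 replicate 1, log2 1.11). In KO the change was -1.08 (limma adjusted p 0.0218), and it missed the threshold without KO EB4 replicate 2 (-0.91, limma adjusted p 0.14), without KO EB8 replicate 1 (-0.65, 0.178) and in a fit of the EB4 and EB8 groups alone (0.124). The difference between the 2 changes was -2.35 (SE 0.41, limma adjusted p 0.0112).

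Jag2 (ENSMUSG00000002799, chromosome 12, 114146801 to 114167706) was the steadiest ligand. Its counts were 1969.6 and 1284, 1298 and 1825, 1533 and 1366, and 845 and 1267 in WT ES, EB4, EB5 and EB8, and 1369.7 and 989, 1300.3 and 651, 1305 and 1248, and 1079 and 493 in KO. Its group means spanned 2.07-fold, from 1627 in WT ES to 786 in KO EB8, and libraries overlapped between all neighbouring groups in that order except WT EB5 and KO EB5. At EB8 the KO change was -0.50 on the log2 scale (95% interval -1.37 to 0.36), and no comparison of Jag2 passed the threshold.

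**Figure D1:**
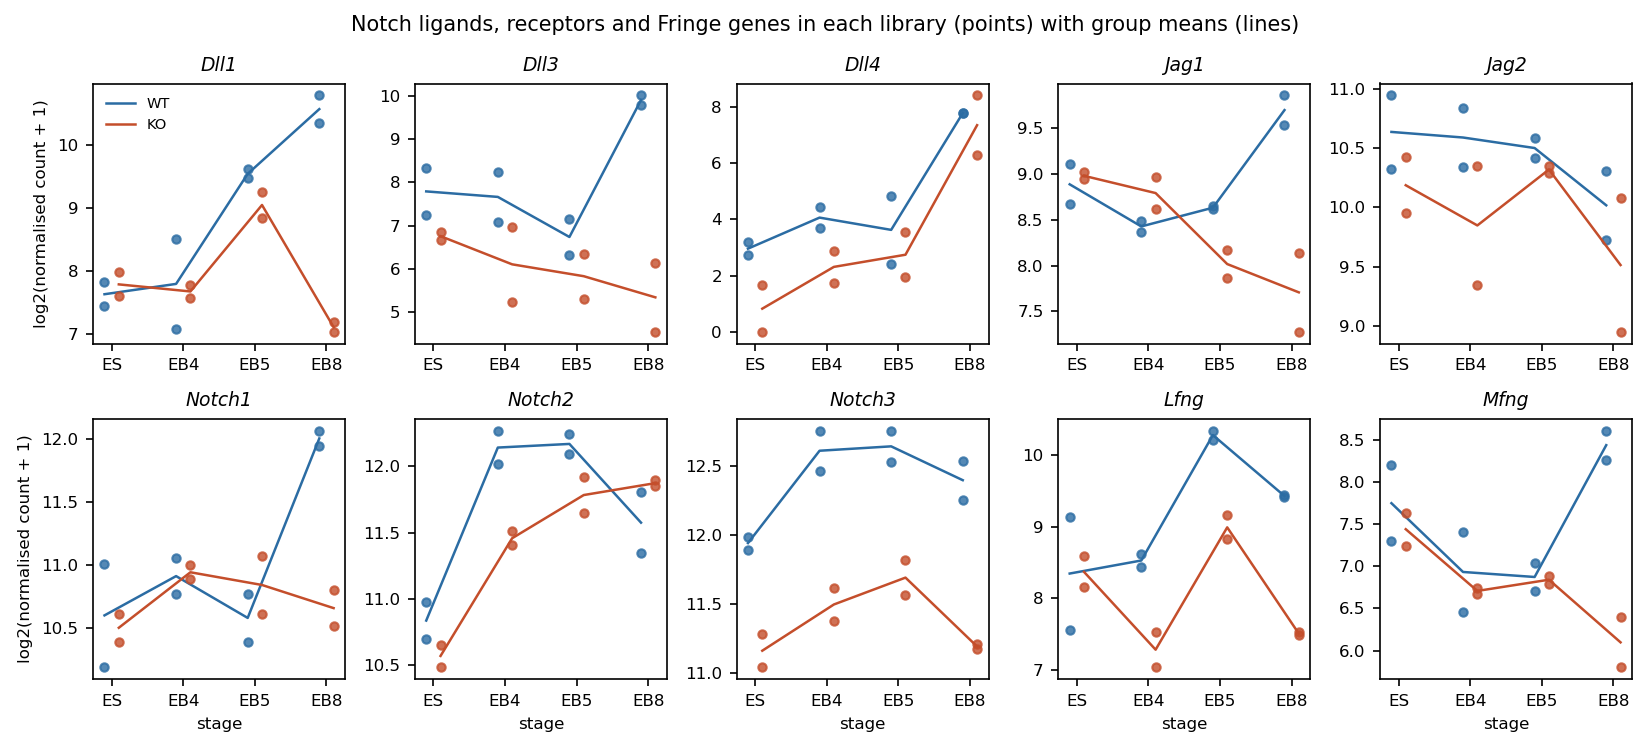
Each panel is 1 gene, with the stage on the x axis and log2(normalised count + 1) on the y axis, whose range differs between panels. Points are single libraries (blue, WT; red, KO) and lines join the means of 2 libraries. The red points lie below the blue at every stage for Notch3, below until EB5 and above at EB8 for Notch2, and overlap the blue until EB5 and lie below at EB8 for Notch1 and Mfng. At EB8 they also lie below for Dll1, Dll3, Jag1 and Lfng, which were apart at 1 or 2 earlier stages too, and overlap for Dll4 and Jag2.

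Levels of different genes were compared per kilobase of exon, as normalised counts divided by exon length. Jag2 was the most abundant ligand in every library of ES, EB4 and EB5, with 52.5% to 76.5% of the ligand total. In WT EB8 it took 18.1% and 26.9%, while Dll1 took 36.3% and 26.5% and Dll3 26.7% and 30.7%. The most abundant ligand there was Dll1 in replicate 1 (418 normalised counts per kilobase) and Dll3 in replicate 2 (357). In KO EB8 Jag2 again came first, with 71.7% and 41.0%, and Dll4 took 5.39% and 29.7%. The summed level of the 5 ligands was 1150 and 1162 normalised counts per kilobase in WT EB8, above the 481 to 748 of the other WT libraries, and 371 and 296 in KO EB8, against 306 to 512 in the other KO libraries.

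**Figure D2:**
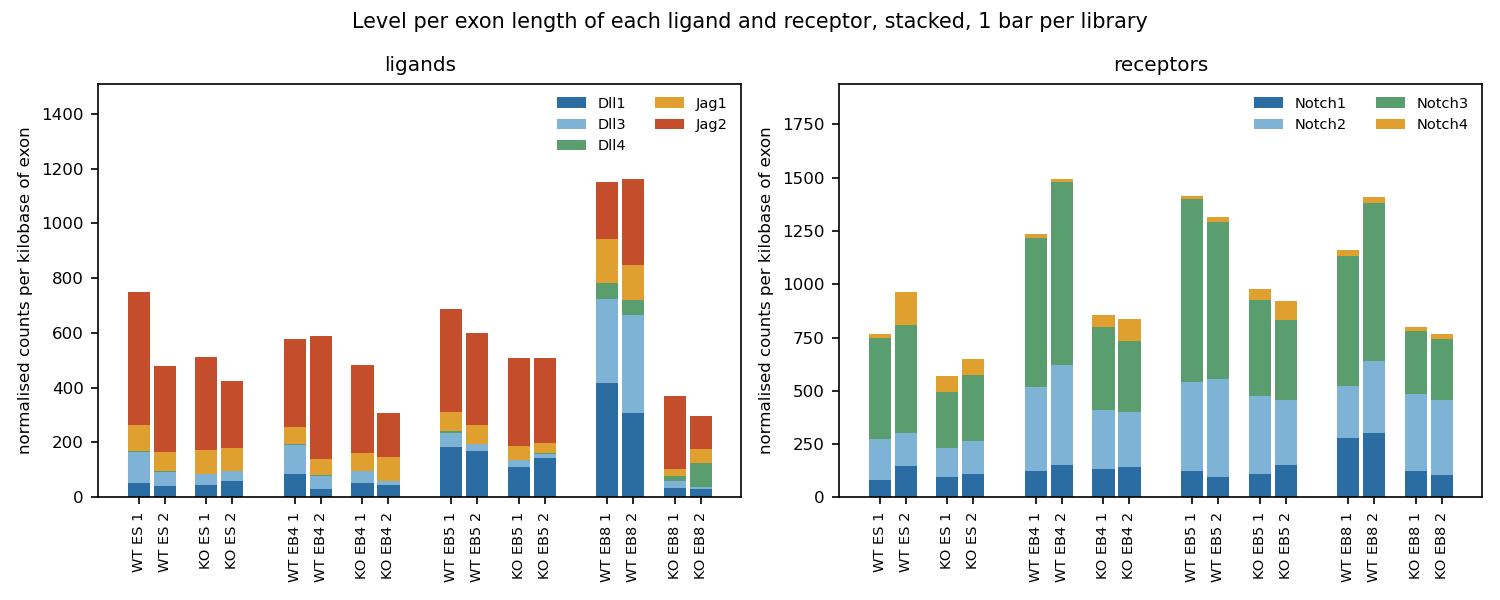
Each bar is 1 library, and its segments are the levels of the ligand genes (left) or receptor genes (right) in normalised counts per kilobase of exon, stacked from 0. The Delta segments (blue, light blue and green, left) make up most of the WT EB8 bars, and the Notch2 segment is larger than the Notch3 segment in the KO EB8 bars only.

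Notch3 (ENSMUSG00000038146, chromosome 17, 32257765 to 32303825), a receptor known in neural progenitors and in vascular smooth muscle, lay lower in KO at every stage. WT libraries were at 3810.0 and 4065 at ES, 5656 and 6919.5 at EB4, 6914 and 5916 at EB5, and 4891 and 5953 at EB8. KO libraries were at 2109 and 2491, 3137 and 2665, 3611 and 3031, and 2375 and 2308. All 8 KO libraries lay below all 8 WT libraries. The log2 change in KO was -0.78 at ES (SE 0.17, limma adjusted p 0.112), -1.11 at EB4 (0.00808), -0.95 at EB5 (0.0139) and -1.20 at EB8 (0.000514), the last being 2.30-fold. The ES value passed the threshold with DESeq2 alone (adjusted p 0.00348). The EB4 call was lost without KO EB4 replicate 2 (limma adjusted p 0.106), and the EB5 call without WT EB5 replicate 1 (-0.84, 0.0706), WT EB5 replicate 2 (-1.06, 0.0616) or KO EB5 replicate 2 (-0.82, 0.209), whereas the EB8 call held without any 1 library. In fits of the compared groups alone the EB4 and EB5 values missed the threshold as well (0.141 and 0.0715). From ES to EB4 Notch3 rose by 0.67 in WT (limma adjusted p 0.0197, lost without WT ES replicate 1 at 0.62 and 0.0695, or WT EB4 replicate 2 at 0.52 and 0.128, or with the WT ES and EB4 groups fitted alone at 0.167), and the KO change was 0.33 (95% interval -0.03 to 0.70). Its change from EB4 to EB8 differed between genotypes by -0.09 (95% interval -0.61 to 0.43). 488 bases of its exons are shared with Gm17276, a lincRNA on the opposite strand.

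Notch1 (ENSMUSG00000026923, chromosome 2, 26313423 to 26372183), a receptor that maintains neural progenitors, overlapped between the genotypes until EB8. In WT it was at 1163 and 2062 at ES, 1742 and 2124 at EB4, 1746 and 1335 at EB5, and 3937 and 4290.1 at EB8. In KO it was at 1339 and 1562, 1893 and 2039, 1559.6 and 2151, and 1777 and 1463. The genotypes overlapped at ES, EB4 and EB5, and the WT EB8 libraries stood above all the others. At EB8 Notch1 was 2.55-fold lower in KO (log2 change -1.35, SE 0.26, limma adjusted p 0.00313). It rose by 1.10 in WT from EB4 to EB8 (limma adjusted p 0.00779), a call lost without WT EB4 replicate 1 (0.95, 0.0681) or WT EB8 replicate 2 (1.03, 0.0554). The KO change was -0.29, and the difference between the 2 changes was -1.38 (limma adjusted p 0.07). 1482 bases of its exons are shared with the lincRNAs Gm13568 and 0610009E02Rik on the opposite strand.

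Notch2 (ENSMUSG00000027878, chromosome 3, 97817461 to 97954290) rose early, and its KO libraries lay on the other side of WT at EB8 than before. WT libraries were at 2016 and 1661 at ES, 4135 and 4934 at EB4, 4373 and 4846 at EB5, and 2602 and 3579 at EB8. KO libraries were at 1434 and 1614, 2919 and 2711, 3866 and 3214, and 3806 and 3697. KO lay below both WT libraries at ES, EB4 and EB5 and above both at EB8. From ES to EB4 Notch2 rose 2.47-fold in WT (limma adjusted p 0.00156) and 1.85-fold in KO (log2 0.89, limma adjusted p 0.0249), the KO call being lost without any 1 of its 4 libraries (limma adjusted p 0.0954 to 0.143, log2 0.80 to 0.97). Both calls missed the threshold in fits of the 2 groups alone (0.078 in WT and 0.0782 in KO). At EB4 the KO level was 1.61-fold lower (log2 -0.68, limma adjusted p 0.046), which missed the threshold without any 1 of the 4 libraries (-0.81 to -0.56, limma adjusted p 0.077 to 0.294), with no filter (0.0724), with quantile normalisation (0.0512) and in a fit of the EB4 groups alone (0.17). In WT it fell by 0.57 on the log2 scale from EB4 to EB8 (limma adjusted p 0.035), a call lost without WT EB4 replicate 1 (0.0549), WT EB4 replicate 2 (0.174) or WT EB8 replicate 1 (0.27), with no filter (0.0547) and in a fit of the WT EB4 and EB8 groups alone (0.126). At EB8 the KO change was 0.30 (95% interval -0.09 to 0.69, limma adjusted p 0.26).

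Per kilobase of exon, Notch3 was the most abundant receptor in all WT libraries, with 52.4% to 61.8% of the total of the 4 receptors. In KO it took 39.5% to 47.6% at ES, EB4 and EB5. In KO EB8 Notch2 came first, with 45.2% and 45.9%, against 36.9% and 37.5% for Notch3. The summed receptor level was 1160 and 1411 normalised counts per kilobase in WT EB8, and 801 and 766 in the KO libraries of that stage. Notch4, the fourth receptor gene and one that ES and endothelial cells express, is counted in this sum. Its WT counts were 154 and 1247 at ES, 127 and 121 at EB4, 144 and 201 at EB5 and 226 and 233 at EB8, against KO counts of 629 and 625, 447 and 849.9, 431 and 711, and 148 and 196. Both KO libraries of Notch4 lay above both WT libraries at EB4 and EB5 (as for 25.3% and 26.7% of all tested genes) and below both at EB8 (33.5%). It passed the threshold in no comparison of genotypes, its EB4 change being 2.30 (SE 0.69, limma adjusted p 0.0687). At ES its 2 WT libraries lay on either side of the KO libraries.

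Lfng (ENSMUSG00000029570, chromosome 5, 141083295 to 141091497), the Fringe gene of the segmentation clock and of neural progenitors, was highest at EB5 in both genotypes. WT libraries were at 561 and 187 at ES, 345 and 392 at EB4, 1191 and 1298 at EB5, and 679 and 698 at EB8. KO libraries were at 383 and 284, 183 and 130.2, 571 and 452, and 184 and 178. The KO libraries lay below both WT libraries at EB4, EB5 and EB8. The log2 change in KO was -1.25 at EB4 (SE 0.40, limma adjusted p 0.0827; DESeq2 adjusted p 0.0265) and -1.29 at EB5 (SE 0.40, limma adjusted p 0.0867; DESeq2 adjusted p 0.0204). At EB8 it was -1.92, or 3.79-fold lower (SE 0.40, limma adjusted p 0.00478). The change from EB4 to EB8 was 0.90 in WT (limma adjusted p 0.113) and 0.22 in KO.

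Mfng (ENSMUSG00000018169, chromosome 15, 78586312 to 78603905), another Fringe enzyme, came apart between the genotypes at EB8. Its WT libraries were at 157 and 292, 169 and 86.9, 131 and 103, and 389 and 306 at ES, EB4, EB5 and EB8, and its KO libraries at 150.3 and 198, 106 and 101, 110.0 and 117, and 54.9 and 83.1. The genotypes overlapped at ES, EB4 and EB5 and stood apart at EB8, where Mfng was 5.05-fold lower in KO (SE 0.40 on the log2 scale, limma adjusted p 0.00158). In WT it rose 2.83-fold from EB4 to EB8 (limma adjusted p 0.0147), a call lost without WT EB4 replicate 2 (1.03, 0.118) or WT EB8 replicate 1 (1.33, 0.0894), and in a fit of the WT EB4 and EB8 groups alone (0.0628). In KO the change was -0.61 (95% interval -1.47 to 0.26), and the difference was -2.11 (limma adjusted p 0.0724).

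Counted over the 10 genes, 0 passed the threshold at ES by limma, where 0.0% of all 16124 tested genes did (1846 genes, 11.4%, had an unadjusted p below 0.05), and DESeq2 called 1 member there, Notch3, among 469 genes. 2 members were lower in KO at EB4 (Notch2 and Notch3), where 6.12% of all genes passed and 3.37% were lower, and 1 at EB5 (Notch3), where 4.34% passed and 2.17% were lower. At EB8 7 were lower and 0 higher, against 22.9% of all genes past the threshold, 12.5% lower and 10.4% higher (1615 genes lower and 2278 higher with upper-quartile rescaling, in place of 2020 and 1677). These 7 were Dll1, Dll3, Jag1, Notch1, Notch3, Lfng and Mfng, and each passed the threshold in all 15 alternatives run for that stage, with an adjusted p of 0.0342 or less. The median log2 change of the 10 genes in KO was -0.29 at ES, -0.71 at EB4, -0.55 at EB5 and -1.64 at EB8, and that of all tested genes was -0.0033, -0.0042, -0.0080 and -0.029. Both KO libraries lay below both WT libraries for 4 members at ES, 5 at EB4, 6 at EB5 and 7 at EB8, an arrangement that 20.7%, 26.6%, 28.1% and 33.5% of all tested genes had. The reverse, both KO above both WT libraries, as for Jag1 at EB4 and Notch2 at EB8, was seen for 19%, 25.3%, 26.7% and 30.4% of all tested genes at these stages. The neural progenitor markers named above differed in the same libraries, and their part in the EB8 differences was not tested.

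**Figure D3:**
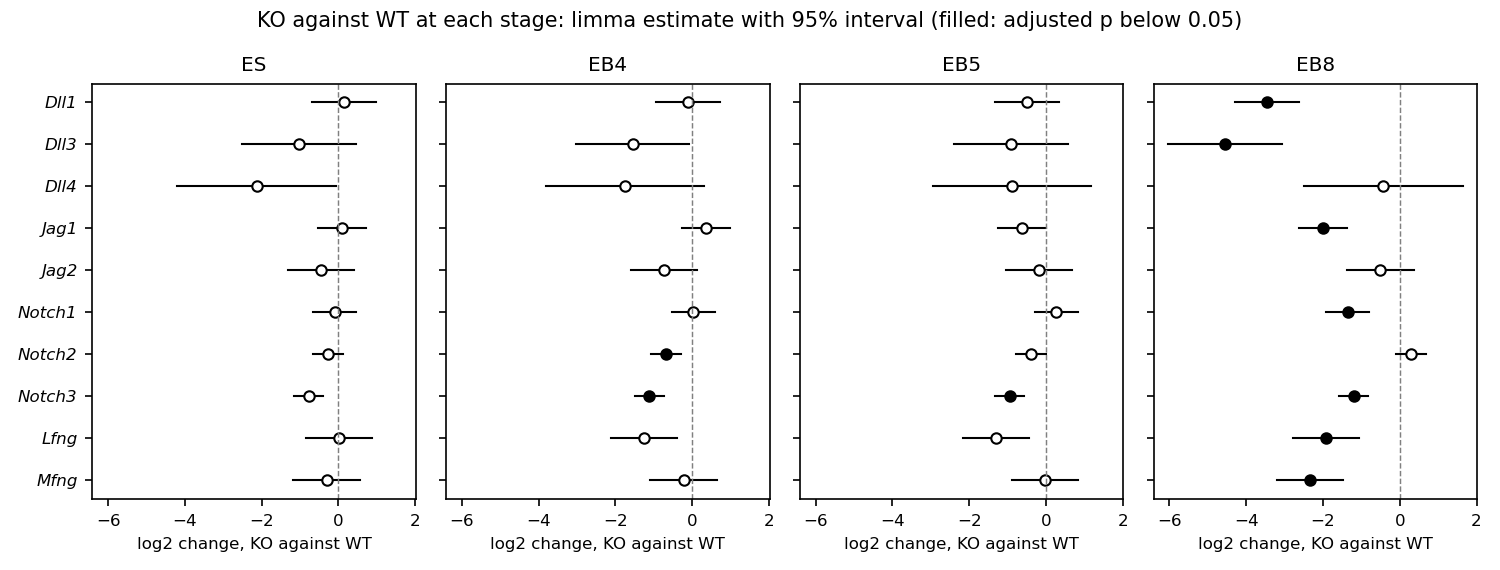
Each panel is a stage and each row a gene, with the log2 change in KO against WT on the x axis, the limma estimate as a point and its 95% interval as a line. Filled points have an adjusted p below 0.05. There are 0 filled points at ES, 2 at EB4, 1 at EB5 and 7 at EB8, all left of 0.

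Along differentiation in WT, 2 of the 10 genes rose from ES to EB4 (Notch2 and Notch3; 8.98% of all genes rose and 7.57% fell, 16.5% in all), and 6 rose and 1 fell from EB4 to EB8 (15.0% and 12.2% of all genes, 27.2% in all). Those that rose were Dll1, Dll3, Dll4, Jag1, Notch1 and Mfng, and the gene that fell was Notch2. Leaving out WT EB8 replicate 1 left 2 of these 7 calls, WT EB4 replicate 2 left 3 and WT EB8 replicate 2 left 4. In KO, Notch2 alone rose from ES to EB4 (2.51% of all genes rose and 0.992% fell, 3.5% in all), and from EB4 to EB8 Dll4 rose and Jag1 fell (9.86% and 8.67% of all genes, 18.5% in all). The difference between genotypes in the ES to EB4 change passed the threshold by limma for 0 members and 0.0% of all genes, with 1129 genes (7.0%) at an unadjusted p below 0.05 and 111 called by DESeq2. That in the EB4 to EB8 change passed it for Dll1 and Jag1, in the direction of a lower change in KO, where 2.75% of all genes passed, 1.71% lower and 1.04% higher in KO. The Dll1 call held in all 19 alternatives (adjusted p up to 0.0498) and the Jag1 call in 18, the exception being a fit of these 4 groups alone (0.0542).

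Of the genes that Notch signalling is known to switch on, 5 of 6 were lower in KO at EB8, where 12.5% of all tested genes were. Hes5, a repressor of neuronal genes in progenitors, was at 811 and 1101 in WT EB8 against 14.8 and 5.33 in KO EB8. Nrarp, a feedback inhibitor of the pathway, was at 1731 and 1341 against 131 and 156, and Heyl, a Hes-related repressor, at 125 and 174 against 9.50 and 16.0. The log2 changes were -6.57 (SE 0.81, limma adjusted p 0.000239), -3.41 (SE 0.42, 0.000252) and -3.47 (SE 0.90, 0.0157). These 3 genes were near the floor or far below the WT EB8 level in every earlier group of either genotype. Hes1 was at 1018 and 1474 against 670.0 and 567 (a log2 difference of -0.99, limma adjusted p 0.019). Hey1 was at 466 and 724 against 154 and 311 (-1.40, 0.0104). Hey2, at 58.8 and 46.6 against 31.7 and 30.9, did not pass (-0.73, 95% interval -1.93 to 0.48).

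The calls of 3 of these genes at EB8 rested on single libraries. Heyl missed the threshold without WT EB8 replicate 1 (limma adjusted p 0.0525), WT EB8 replicate 2 (0.0906) or KO EB8 replicate 1 (0.0942), and with a pseudocount of 0.1 (0.102). Hes1 missed it without WT EB8 replicate 2 (0.159), KO EB8 replicate 1 (0.0514) or KO EB8 replicate 2 (0.109), and Hey1 without WT EB8 replicate 2 (0.101) or KO EB8 replicate 1 (0.103). Hes1 was already apart at EB4, with 1305 and 856 in the WT and 620.3 and 482 in the KO libraries (a log2 difference of -0.95, limma adjusted p 0.0562). Hey1 lay the other way there, with both KO libraries (415 and 405) above both WT libraries (327 and 276). From EB4 to EB8 the change was lower in KO than in WT by 4.76 on the log2 scale for Hes5 (limma adjusted p 0.0466) and by 2.76 for Nrarp (0.031), and the Hes5 call was lost without any 1 of the 8 libraries (limma adjusted p 0.0679 to 0.162) and the Nrarp call without any but WT EB4 replicate 1 or KO EB4 replicate 2 (up to 0.111).

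**Figure D4:**
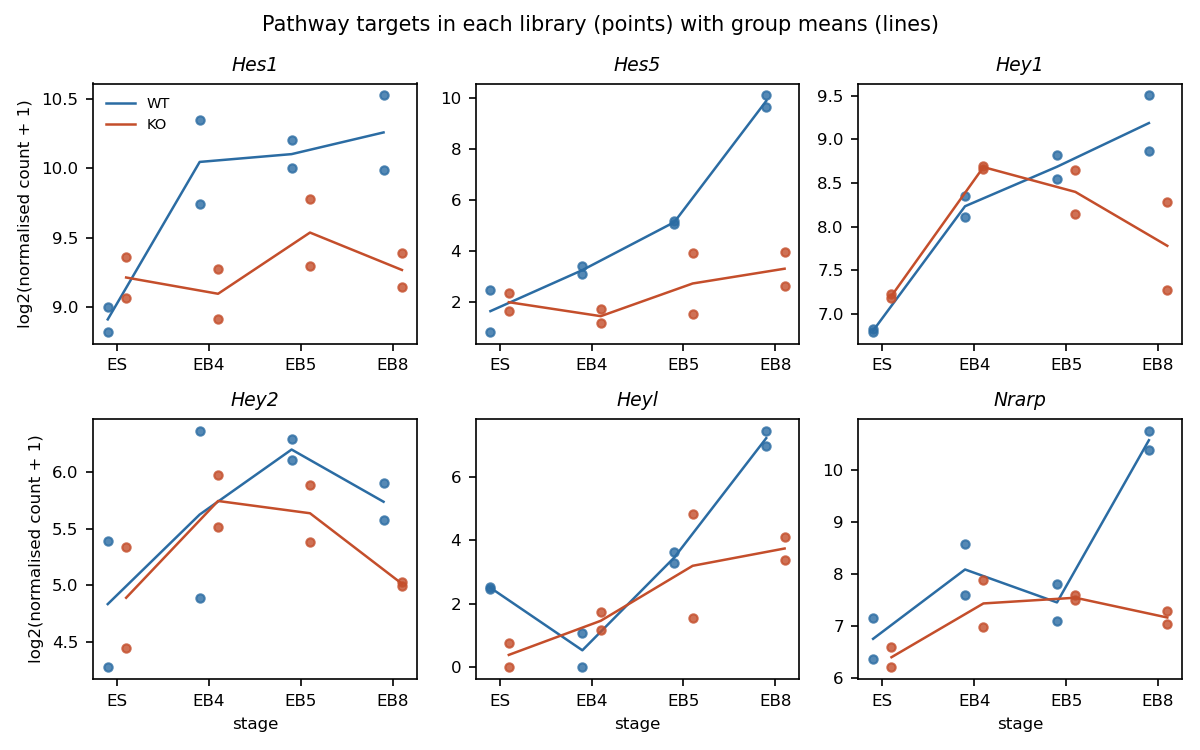
Each panel is 1 pathway target, with the stage on the x axis and log2(normalised count + 1) on the y axis, whose range differs between panels. Points are single libraries (blue, WT; red, KO) and lines join the means of 2 libraries. Hes5, Heyl and Nrarp show the steep rise of WT between EB5 and EB8 that the KO libraries lack, and Hey2 shows the smallest gap at EB8.

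The rest of the pathway was read from a list of 46 genes, the 6 targets included, all of which were tested. 15 passed the threshold at EB8, 13 lower (12.5% of all genes) and 2 higher (10.4%) in KO. The widest change outside the targets was that of Dtx4, a Deltex E3 ligase of the Notch pathway, at 12672 and 11699.5 in WT EB8 against 366 and 330.2 in KO EB8 (34.9-fold lower, limma adjusted p 3.77e-07). Dtx4 was lower in KO from EB4 on, with log2 changes of -1.73 at EB4 (limma adjusted p 0.00465) and -2.02 at EB5 (0.00408), both calls lost without KO replicate 2 of the stage (0.0754 and 0.069). Dner, a transmembrane protein of neurons related to the Delta ligands, was at 613 and 1068 against 147 and 44.7 (9.86-fold lower, limma adjusted p 0.00239). In the 2 earlier EB stages its KO libraries had lain above both WT libraries, with 215 and 231 against 53.7 and 124 at EB4. The 2 higher genes were Hdac1, a corepressor enzyme, at 2584 and 3063 in WT EB8 and 4717 and 4793 in the KO libraries (a log2 difference of 0.76, limma adjusted p 0.00595), and Psen2, a presenilin of the enzyme that cuts Notch, at 179 and 246 against 382 and 434 (0.96, 0.02). Without WT EB8 replicate 1 both missed the threshold (0.0539 and 0.143), and Psen2 did so as well without KO EB8 replicate 1 (0.0598) or KO EB8 replicate 2 (0.106).

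The 6 other lower genes at EB8 outside the targets were the Deltex gene Dtx3, the coactivators Maml2 and Maml3, the ligase Mib1 that primes ligands, the Numb relative Numbl, and Aph1a of the cleaving enzyme, with log2 changes from -1.86 (Maml3) to -0.56 (Aph1a). By step of the pathway, the genes lower in KO were 1 of 4 receptors and ligands outside the members, 2 of 11 of receptor glycosylation and trafficking, 1 of 9 of receptor cleavage, 2 of 11 of the nuclear complex, 2 of 5 Deltex genes and 5 of 6 targets, against 12.5% of all genes. The higher genes were 1 of cleavage (Psen2) and 1 of the nuclear complex (Hdac1). Without WT EB8 replicate 2 the count over the list was 8, and without KO EB8 replicate 1 it was 9. At EB4 6 genes of the list passed, with Adam17 and Rbpj higher (2.75% of all genes) and Dtx4, Furin, Maml3 and Mib1 lower (3.37%). Rbpj and Furin are given with values because they stood out at EB4, a choice made after their values were seen. Rbpj, the DNA-binding partner of cut Notch, was at 6302 and 5804 in the WT and 10194 and 15119.7 in the KO libraries, a log2 difference of 1.04 (limma adjusted p 0.011). It missed the threshold without WT EB4 replicate 2 (0.0527) or KO EB4 replicate 2 (0.127), and reads that processed copies of Rbpj could share make its count uncertain. Furin, the protease that matures the receptor, was at 2498 and 3016 in the WT and 1218 and 1118 in the KO libraries, a log2 difference of -1.23 (limma adjusted p 0.00943, lost without WT EB4 replicate 2 at 0.0511 or KO EB4 replicate 2 at 0.11). The count of 6 was 3, 1, 4 and 0 by limma without WT EB4 replicates 1 and 2 and KO EB4 replicates 1 and 2, in that order. At EB5 Dtx4 alone of the list passed by limma, and 0 genes of the list did at ES, where DESeq2 called 2.

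The markers of other cell types were read beside these genes. Dll1, Dll3 and Lfng are also genes of the presomitic mesoderm, and its 5 markers (Tbx6, Msgn1, T, Mesp2 and Hes7) summed to 50.4 and 85.8 in the WT and 112 and 156 in the KO libraries at EB8, with Msgn1 at the floor in both. Its members did not move together there, since Mesp2 was at 14.7 and 6.35 in WT and 51.7 and 79.9 in KO, while Tbx6 was at 21.0 and 51.9 in WT against 32.7 and 30.9. At EB4 the sum was 147 and 883 in WT and 728 and 204 in KO, most of the higher sums being T (807 in WT replicate 2 and 645 in KO replicate 1). Dll1 and Dll3 were lower in the WT replicate with the higher sum and higher in the KO replicate with the higher sum, and Lfng was higher in both. The 7 fibroblast markers summed to 929 and 2267 (WT) and 165 and 328 (KO) at ES, and to 2386 and 3119 against 1472 and 3700 at EB8. The 5 endoderm markers summed to 1805 and 1531 against 668 and 608 at EB8. The part of presomitic mesoderm, fibroblasts and endoderm in the levels of the 10 genes was not tested.

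For the 5 members whose group means spanned at least 2 on the log2 scale (4-fold), the genes with the most similar pattern over the 16 libraries are given by Pearson's r of log2(normalised count + 1) across 16124 genes, as a description. All 16 points share the 2 genotypes and 4 stages. Dll1 was closest to Irx6 (0.94), Smpd3 (0.91) and Fgfbp3 (0.90). Dll3 was closest to Igsf9 (0.94), Mfsd2a (0.93) and Nefl (0.92), a neurofilament gene. Dll4 was closest to Prdm11 (0.94), Gm8113 (0.92) and Cd93 (0.92), an endothelial surface gene. Lfng was closest to Foxp1 (0.97), Wdr48 (0.90) and Rprm (0.89). Among the genes most like Mfng were Tagln3 (0.88), which is known from neurons, and Degs2 (0.85). Among the members themselves r ran from -0.47 (Notch2 and Mfng) to 0.80 (Jag1 and Mfng), with 0.76 for Dll1 and Lfng and 0.75 for Dll3 and Mfng.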

How the data were processed

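RNA-seq of polyadenylated RNA (single-end reads, a kit that does not mark strand) was analysed in 16 libraries, 8 groups of 2, grouped by the labels. The deposited signal values are counts of whole reads per gene that the authors divided by a size factor of each library (DESeq2). The submitters' processing notes name CASAVA 1.7 and 1.8, TopHat2 2.0.10, HTSeq 0.5.4p3, DESeq2 1.0.19 and build mm9 (NCBI37). The annotation release and the strand setting of the counting are not given in the sources used here.

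Dividing by the smallest step of each library (0.715 to 1.28) recovered whole reads for 100% of values within 0.001, with 22442118 to 40711826 reads per library. Of 27807 gene IDs, 27603 matched GENCODE M1 (NCBI37), which gave coordinates and exon lengths. Values were tested as log2(normalised count + 1), so fold changes of low genes are understated, with limma 3.58.1 (R 4.3.3): a mean for each of the 8 groups, moderated variances with a trend, and Benjamini-Hochberg adjustment over the 16124 genes with a mean of at least 10, at a threshold of 0.05. 10 contrasts were fitted: KO versus WT at each of 4 stages, EB4 versus ES and EB8 versus EB4 in each genotype, and the genotype difference in these 2 changes. EB5 was not tested against other stages. Intervals are 95%. Scripts were tested on simulated data.

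The alternatives were pseudocounts of 0.1 and 5, no filter, a mean of at least 50, upper-quartile and quantile scaling, a fit of the compared groups alone, a replicate block, edgeR 4.0.16 and DESeq2 1.42.0 on the recovered reads, and each library left out. A block with exchanged KO numbers was chosen after seeing the data. The members, the pathway list, and the marker lists (neural progenitor, neuron, pluripotent cell, fibroblast, endothelial cell, presomitic mesoderm, endoderm) were chosen with earlier results of these data known. All members, Notch4 and the 6 targets were named, with up to 5 pathway genes that rose and 5 that fell most at EB8, and, for members whose group means spanned 2 or more on the log2 scale, the 3 most similar genes, of which 1 is not reported here. Other scripts used Python 3.11.15.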

Additional observations from a re-analysis of the deposited data

Results flagged for a closer look

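The change from EB4 to EB8 differed between the genotypes for 2 of the 10 members and 5 of the 46 other genes of the pathway list, by limma's test of the difference itself (KO change minus WT change, log2 scale, Benjamini-Hochberg adjusted p). Of all 16124 tested genes 2.75% passed, 1.71% lower and 1.04% higher in KO. Dll1 differed by -3.34 (adjusted p 0.0105) and Jag1 by -2.35 (0.0112). Dtx4 differed by -3.40 (0.000895), Dner by -4.74 (0.014), Hes5 by -4.76 (0.0466) and Nrarp by -2.76 (0.031). Furin differed by 1.26 (0.0388), having fallen in WT and risen in KO. The Jag1 call was lost in a limma fit of the compared groups alone (adjusted p 0.0542). That of Nrarp was lost on leaving out any 1 library other than WT EB4 replicate 1 or KO EB4 replicate 2. The Dner call was lost without WT EB8 replicate 2 (0.0671) or KO EB4 replicate 2 (0.0507), and the Furin and Hes5 calls without any 1 of the 8 libraries.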

How the results depend on the processing

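The 7 members lower at EB8 passed the threshold in all 15 alternatives, 4 libraries left out singly included. The limits lie in the other counts. With only the groups compared, few residual degrees of freedom remain, and members past the threshold numbered 0 at EB4, 0 at EB5, 0 for EB4 versus ES in WT, 0 in KO, and 1 for EB8 versus EB4 in KO, with pathway genes at 0, 0 and 0 (EB4, and EB4 versus ES in WT and KO) and 3 (EB8 versus EB4 in KO). DESeq2 called 1, 2 and 6 members (ES, EB5 and the genotype difference in the EB4 to EB8 change) and 2, 15, 7, 9, 9 and 8 pathway genes (ES, EB4, EB5, EB4 versus ES in KO, EB8 versus EB4 in KO and that difference). No filter gave 1 member at EB4 and 1 and 3 pathway genes (EB4 versus ES in KO, that difference). Quantile scaling gave 1 member at EB4 and 4 in that difference, and 2, 2 and 8 pathway genes (EB5, EB4 versus ES in KO, EB8 versus EB4 in KO). Members that passed in that difference under some alternatives (adjusted p) were Dll3 (replicate block 0.0253, block within genotype 0.0212, DESeq2 0.0307), Mfng (quantile 0.0391, DESeq2 0.017, without WT EB4 replicate 1 0.0479), Notch1 (only the groups compared 0.0451, block within genotype 0.0489, DESeq2 0.0158) and Notch2 (upper quartile 0.0331, quantile 0.0278, block within genotype 0.0467, DESeq2 0.0122). In that difference Notch2 was higher in KO (0.75 to 1.21 on the log2 scale over the alternatives), whereas Dll3, Mfng and Notch1 were lower in KO. The cause of these moves between fits was not tested.

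Same-numbered libraries deviated together with a correlation of 0.335 at ES, -0.058 at EB4, -0.209 at EB5 and -0.133 at EB8 between the genotypes. Within a genotype it was -0.076 (WT) and 0.389 (KO) for EB4 versus ES, and 0.523 and 0.373 for EB8 versus EB4. Chromosome levels followed the number within a genotype: chromosome 11 stood at 0.18 to 0.28 in every KO replicate 1, X at 0.35 to 0.54 in every KO replicate 2, and chromosome 8 at 0.40 to 0.41 in replicate 1 of the WT EBs but not of WT ES. This hints, from the data and not the design, that a number follows 1 line through the KO stages and the WT EB stages. The labels do not say so and not every correlation passed 0.1, so the numbers were not taken to pair the libraries. With the replicate block, 7 members stayed past the threshold at EB8 and the pathway count was 10 at EB4 and 2 at EB5. With KO numbers exchanged it was 2 at EB5 and the members at EB8 were 7. With the replicate block within genotype, 5 members (Dll1, Jag1, Dll3 and Notch1, lower in KO, and Notch2, higher) and 8 pathway genes passed in the EB4 to EB8 difference, and 8 and 8 pathway genes for EB4 versus ES and EB8 versus EB4 in KO.

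Over the fits that left out 1 library each, the count of members past the threshold was 0 to 0 for ES (0 with all libraries), 0 to 1 for EB4 (2 with all libraries), 0 to 1 for EB5 (1 with all libraries), 7 to 7 for EB8 (7 with all libraries), 1 to 2 for EB4 versus ES in WT (2 with all libraries), 0 to 0 for EB4 versus ES in KO (1 with all libraries), 2 to 5 for EB8 versus EB4 in WT (7 with all libraries), 1 to 2 for EB8 versus EB4 in KO (2 with all libraries), 0 to 0 for the genotype difference in the ES to EB4 change (0 with all libraries) and 2 to 3 for the genotype difference in the EB4 to EB8 change (2 with all libraries). Over the fits that left out 1 library each, the count of pathway genes past the threshold was 0 to 1 for ES (0 with all libraries), 0 to 4 for EB4 (6 with all libraries), 0 to 3 for EB5 (1 with all libraries), 8 to 11 for EB8 (15 with all libraries), 10 to 17 for EB4 versus ES in WT (18 with all libraries), 0 to 1 for EB4 versus ES in KO (5 with all libraries), 9 to 16 for EB8 versus EB4 in WT (16 with all libraries), 2 to 5 for EB8 versus EB4 in KO (5 with all libraries), 0 to 1 for the genotype difference in the ES to EB4 change (0 with all libraries) and 1 to 3 for the genotype difference in the EB4 to EB8 change (5 with all libraries).

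Some log2 changes, none of them past the threshold, turned direction. With quantile normalisation they were 0.018 for Dll1 (EB4), -0.11 for Lfng (EB8 versus EB4 in KO), -0.052 for Mfng (the genotype difference in the ES to EB4 change). With pseudocount 5 they were -0.21 for Dll4 (the genotype difference in the ES to EB4 change). With upper-quartile rescaling they were 0.039 for Notch3 (the genotype difference in the EB4 to EB8 change), -0.032 for Lfng (ES), 0.025 for Mfng (EB5), 0.089 for Hes1 (the genotype difference in the EB4 to EB8 change). With edgeR they were -0.16 for Lfng (ES), -0.0026 for Lfng (EB4 versus ES in WT). With DESeq2 they were -0.17 for Lfng (ES), -0.018 for Lfng (EB4 versus ES in WT).

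Leaving out 1 library turned the direction of further log2 changes that had not passed the threshold. For Dll1 the ranges were -0.038 to 0.35 (ES), -0.84 to 0.60 (EB4), -0.55 to 0.88 (EB4 versus ES in WT), -0.30 to 0.077 (EB4 versus ES in KO), -0.99 to 0.44 (the genotype difference in the ES to EB4 change). For Dll3 the ranges were -0.70 to 0.45 (EB4 versus ES in WT), -1.51 to 0.21 (EB4 versus ES in KO), -1.62 to 0.096 (EB8 versus EB4 in KO), -1.38 to 0.34 (the genotype difference in the ES to EB4 change). For Dll4 the ranges were -2.08 to 0.31 (EB5), -1.49 to 0.63 (EB8), -0.44 to 1.21 (the genotype difference in the ES to EB4 change). For Jag1 the range was -0.12 to 0.31 (ES). For Jag2 the ranges were -1.07 to 0.060 (EB8), -0.36 to 0.26 (EB4 versus ES in WT), -0.84 to 0.16 (EB4 versus ES in KO), -0.90 to 0.23 (EB8 versus EB4 in KO), -0.79 to 0.21 (the genotype difference in the ES to EB4 change), -0.33 to 0.80 (the genotype difference in the EB4 to EB8 change). For Notch1 the ranges were -0.51 to 0.31 (ES), -0.11 to 0.17 (EB4), -0.10 to 0.73 (EB4 versus ES in WT), -0.28 to 0.54 (the genotype difference in the ES to EB4 change). For Notch3 the range was -0.24 to 0.055 (the genotype difference in the EB4 to EB8 change). For Lfng the ranges were -0.76 to 0.81 (ES), -0.61 to 0.97 (EB4 versus ES in WT), -0.021 to 0.47 (EB8 versus EB4 in KO). For Mfng the ranges were -0.76 to 0.14 (ES), -0.70 to 0.25 (EB4), -0.20 to 0.14 (EB5), -0.39 to 0.56 (the genotype difference in the ES to EB4 change). For Hes1 the range was -0.35 to 0.26 (the genotype difference in the EB4 to EB8 change).

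Counts over all tested genes moved by more than 1.5 times in several fits. DESeq2 called 469, 2077 and 1719 genes at ES, EB4 and EB5 (limma 0, 986 and 700), 1668 for EB4 versus ES in KO (564) and 1063 for the genotype difference in the EB4 to EB8 change (444). No filter gave 609, 447 and 310 (EB4, EB5, EB4 versus ES in KO). Only the groups compared gave 0, 72, 0, 23, 1689 and 218 (EB4, EB5, EB4 versus ES in WT and in KO, EB8 versus EB4 in KO, and the genotype difference in the EB4 to EB8 change). The block within genotype gave 1291 for EB4 versus ES in KO and 797 for that difference, and quantile normalisation 361 for EB4 versus ES in KO. With 1 library left out the range was 0 to 121 at ES, 0 to 753 at EB4 (0 without KO EB4 replicate 2), 0 to 525 at EB5 (0 without KO EB5 replicate 2) and 1907 to 2408 at EB8. Upper-quartile rescaling shifted all genes by a median of 0.14 on the log2 scale at EB8, to 2278 higher and 1615 lower (1677 and 2020 as reported), and by 0.13 in the genotype difference in the EB4 to EB8 change, to 217 higher and 234 lower (168 and 276). The 7 members remained lower at EB8 under it.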
